A study of Homo sapiens with 12 samples.

Results

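The miRNAs of the imprinted DLK1-DIO3 region on human chromosome 14 were followed in AC16 cells and in exosomes isolated from them. AC16 is an established human line derived from ventricular cardiomyocytes by cell fusion. The cluster was taken as every listed mature miRNA carrying 1 of 48 miRNA numbers of the region, with any arm, and all 48 numbers were found. This gave 91 of the 2656 names counted, of which 43 were 5p arms, 42 were 3p arms and 6 carried no arm in the name. Of the 91, 18 names lay on the MEG3 and RTL1 side of the cluster and 73 in the long run from miR-379 to miR-410 and miR-656. The 4 groups were whole cells labelled Con, whole cells labelled Ang, exosomes labelled Con and exosomes labelled Ang, each with 3 libraries. Files of the Ang groups carry AngII in their headers, and neither dose nor duration was stated in the material used. All groups were AC16, with no genotype or other agent named, and no source says whether the numbered replicates were separate cultures, so each p-value measures only the spread between these samples. The study asked which miRNAs differ in exosomes of hypertrophic cardiomyocytes.

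The DLK1-DIO3 region is imprinted. The paternal chromosome expresses the protein genes DLK1, RTL1 and DIO3, and the maternal chromosome expresses long noncoding RNAs such as MEG3 and MEG8 together with the miRNAs, which are cut from those transcripts. The miRNAs opposite RTL1 are fully complementary to its messenger RNA and direct its cleavage. The cluster is active in embryo, placenta, brain and muscle, and its members miR-410 and miR-495 have been described to promote cardiomyocyte proliferation. Each hairpin precursor is cut into a duplex, and usually 1 of its strands, the 5p or the 3p arm, is kept in an Argonaute protein, where its seed pairs with target messages.

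Mature sequences were taken from RefSeq on GRCh38.p14 and matched 90 of the 91 names, all on chromosome 14 between positions 100852409 and 101066786, a span of 214.4 kb. They are written 5′ to 3′ with the seed, bases 2 to 8, in capitals. The first set holds both arms of hairpins whose arm ratio differed between cells and exosomes.
miR-369-5p: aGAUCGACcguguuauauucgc
miR-369-3p: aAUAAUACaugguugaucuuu
miR-382-5p: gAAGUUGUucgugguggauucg
miR-382-3p: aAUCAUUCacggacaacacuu
miR-323a-5p: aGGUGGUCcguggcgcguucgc
miR-323a-3p: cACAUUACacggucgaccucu
miR-654-5p: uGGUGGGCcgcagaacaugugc
miR-654-3p: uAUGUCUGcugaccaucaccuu
miR-154-5p: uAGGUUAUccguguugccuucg
miR-154-3p: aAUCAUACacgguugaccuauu
miR-370-5p: cAGGUCACgucucugcaguuac
miR-370-3p: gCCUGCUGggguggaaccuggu
miR-433-5p: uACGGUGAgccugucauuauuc
miR-433-3p: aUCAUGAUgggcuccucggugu
miR-432-5p: uCUUGGAGuaggucauugggugg
miR-432-3p: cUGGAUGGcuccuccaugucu

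The next set holds members with the largest differences between exosomes and cells and the remaining members that differed between Ang and Con.
miR-1193: gGGAUGGUagaccggugacgugc
miR-665: aCCAGGAGgcugaggccccu
miR-770-5p: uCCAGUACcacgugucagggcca
miR-136-5p: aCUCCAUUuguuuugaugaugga
miR-376c-3p: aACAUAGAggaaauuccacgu
miR-544a: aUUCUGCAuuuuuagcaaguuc
miR-412-3p: aCUUCACCugguccacuagccgu
miR-485-5p: aGAGGCUGgccgugaugaauuc
miR-487a-3p: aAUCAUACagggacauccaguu
miR-487b-5p: gUGGUUAUcccuguccuguucg
miR-127-3p: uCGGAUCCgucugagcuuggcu

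The last set holds pairs of the same length that share a seed. miR-154-3p and miR-487a-3p above form a further such pair. Among the 90 sequences 79 seeds were distinct, and 10 seeds were shared by 21 names.
miR-1185-1-3p: aUAUACAGggggagacucuuau
miR-1185-2-3p: aUAUACAGggggagacucucau
miR-381-3p: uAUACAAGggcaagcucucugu
miR-300: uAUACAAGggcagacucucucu

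Library totals ran from 413513 to 528844 counts of unique molecular identifiers (UMIs) in cells and from 697049 to 1029883 in exosomes, so 3 counts, taken as the detection floor, came to between 2.91 and 7.25 CPM, the count scaled to a common library total. Cardiac and skeletal muscle miRNAs were scarce in the cells. Their summed level was 344 to 376 CPM in Con and 285 to 326 CPM in Ang, most of it miR-208a-3p, and miR-1-3p stood at 4.08 to 17.0 CPM. A pair of libraries stood apart from the others of their group in blood cell, liver and endothelial miRNAs. In cells Ang, replicate 2 held 6592 CPM of the blood cell list against 1990 and 2131 CPM in the others. In exosomes Con, replicate 1 held 532 CPM against 1175 and 1253 CPM, with 339, 625 and 459 CPM in exosomes Ang, and of the 51 cluster miRNAs averaging at least 10 CPM in that group 32 had their lowest value in replicate 1. The exosome groups also differed in the other lists. The liver list held 8.74, 123 and 156 CPM in Con (mean 96.0) and 4.30, 18.8 and 10.8 CPM in Ang (mean 11.3). The endothelial list held 130, 434 and 473 CPM in Con (mean 346) and 84.6, 233 and 96.8 CPM in Ang (mean 138). In the blood cell, liver and endothelial lists exosome Con replicates 2 and 3 were above every exosome Ang library. Exosome Con replicate 1 lay within the range of exosomes Ang. The part of these differences in the results, the Ang changes in exosomes included, was not tested, and counts of calls without cell Ang replicate 2 or exosome Con replicate 1 are given beside the results.

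Cluster miRNAs made up a few percent of all miRNA counts in every library. Their share was 5.31%, 5.13% and 5.09% in cells Con, 5.11%, 4.83% and 5.21% in cells Ang, 4.54%, 4.33% and 4.38% in exosomes Con, and 4.06%, 3.96% and 3.97% in exosomes Ang. Every exosome library was below every cell library, and every exosome Ang library was below every exosome Con library. The order of the exosome groups rested on the leading names: leaving out the 10 most abundant of all names in each library, miR-668-3p among them in exosomes, the mean share was 3.29% in exosomes Con and 3.70% in exosomes Ang. All 91 names had a count in each cell library, and 83 to 88 did in an exosome library. The median cluster miRNA stood at 110 CPM in cells and 18.9 CPM in exosomes, where the medians of all listed names were 29.5 and 7.34 CPM.

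In exosomes the cluster was carried by a few names. The 10 most abundant held 92.3% of the cluster's mean CPM in exosomes and 61.6% in cells, and 7 names were among the 10 in both. Above 1000 CPM stood 15 names in cells and 5 in exosomes, and below 10 CPM stood 4 and 37. miR-668-3p led in both. It was counted at 8295, 8374 and 8235 CPM in cells Con, 8487, 8215 and 8157 in cells Ang, 25614, 23547 and 23724 in exosomes Con, and 20141, 19446 and 19825 in exosomes Ang. Among all names it ranked between 14 and 18 in cell libraries and at 6 or 7 in exosome libraries. Its mature sequence is not shown here.

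Next in cells Con came miR-127-3p (4170 to 4372 CPM), miR-654-5p (3618 to 4100 CPM) and miR-370-3p (2872 to 3160 CPM). miR-127-3p is cut from the strand opposite RTL1. In exosomes Con miR-370-3p, at 6347 to 7043 CPM, was second, and miR-654-5p, at 2856 to 3292 CPM, came next. miR-127-3p stood at 830 to 1007 CPM there. The plot of leading members shows 2 kinds of profile: members such as miR-668-3p, miR-370-3p and miR-369-5p held a larger part of exosome than of cell counts, and miR-379-5p, miR-654-3p and miR-411-5p were several-fold lower in every exosome library than in any cell library.

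**Figure D1:**
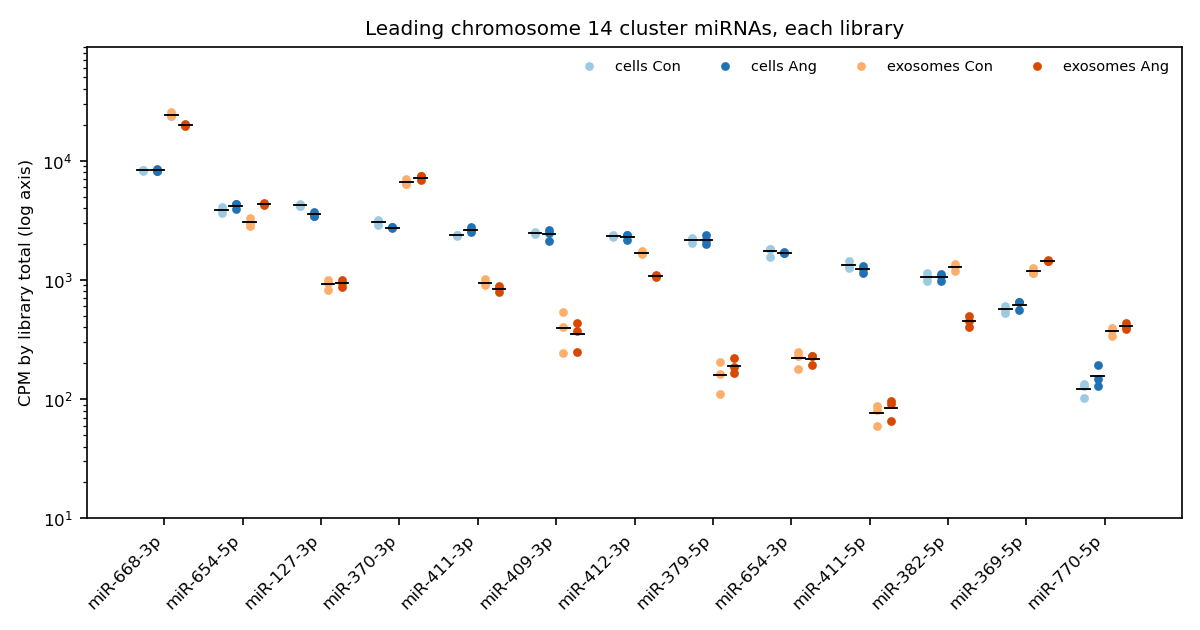
CPM on a log axis of the 13 names that were among the 10 most abundant cluster miRNAs in cells or in exosomes, with 1 point per library and a bar at each group's mean. miR-668-3p leads in all 4 groups, and miR-379-5p, at 2045 to 2260 CPM in cells Con, lies at 111 to 206 CPM in exosomes Con.

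The comparison of exosomes with cells asked which cluster miRNAs were relatively enriched or depleted in exosomes. In Con, 20 of the 85 tested cluster miRNAs were higher and 61 lower in exosomes (edgeR quasi-likelihood test, adjusted p below 0.05). Of all 1710 names tested, 83.3% passed, 39.2% higher and 44.2% lower. In Ang, 18 of 75 were higher and 50 lower, where 83.3% of all tested names passed, 38.2% higher and 45.1% lower. The median log2 difference of the cluster was -1.85 in Con and -1.22 in Ang, against -0.27 and -0.31 for all tested names. The conditions use separate libraries. Cell and exosome RNA were isolated with different kits, so kit and compartment cannot be told apart. Of the 75 cluster miRNAs tested in both, 17 were higher in both, 50 were lower in both and 0 passed in opposite directions. Of all 1572 names tested in both, 582 were higher in both, 640 were lower in both, and 4 and 5 passed in opposite directions.

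These log2 values are on the TMM scale, which sets the bulk of the names equal between libraries. Scaling by library totals alone moved the median of all names by -1.51 in Con and by -1.88 in Ang. It then gave 11 higher and 71 lower in Con, and 7 higher and 65 lower in Ang. All 61 and all 50 lower names kept their call on that scale. As it moved values downward, this is no check on the lower names. Of the 20 higher names in Con, 11 kept the call, 2 lost it and 7 turned negative, and of the 18 in Ang 7 kept it, 2 lost it and 9 turned negative. A name called higher below is therefore higher relative to the bulk of miRNAs. The 9 that turned negative in Ang were miR-411-3p, miR-485-3p, miR-382-5p, miR-412-3p, miR-485-5p, miR-323b-5p, miR-300, miR-323a-5p and miR-487a-3p, and the 7 in Con are given below. Without exosome Con replicate 1 the Con comparison called 75 of 82 tested names, and without cell Ang replicate 2 the Ang comparison called 71 of 82.

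miR-1193 had the largest positive difference, imprecise in size, with 6, 9 and 1 counts in cells Con, the last below the floor of 3. It had 11.3, 17.4 and 2.36 CPM in cells Con against 112, 110 and 131 in exosomes Con, a log2 difference of 4.91 ± 0.27 (SE), and 4.71 ± 0.24 in Ang. miR-665 went from 60.1 to 66.0 CPM in cells Con to 241 to 262 CPM in exosomes Con, with a log2 difference of 3.51 ± 0.12. miR-770-5p, whose hairpin lies in an exon of MEG3 (chr14:100852390-100852487), went from 102 to 134 CPM to 339 to 395 CPM, with 3.13 ± 0.13. For each of these 3 names the groups did not overlap. miR-668-3p differed by 3.06 ± 0.05 and miR-370-3p, which lies past the RTL1 gene (mature strand at chr14:100911186-100911207), by 2.63 ± 0.07. miR-154-3p (3.09), miR-432-3p (2.75), miR-369-5p (2.57), miR-1185-2-3p (2.30) and miR-433-3p (2.06) completed the 10 largest. All 10 also passed as higher with library totals, the smallest being miR-433-3p at 0.55 and the largest miR-1193 at 3.41. miR-654-5p (1.18 with TMM, -0.34 with library totals), miR-412-3p (1.05, -0.47), miR-411-3p (0.20, -1.31) and 4 more names, miR-300, miR-485-3p, miR-323b-5p and miR-134-3p, were positive with TMM only.

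Depletion reached much further. miR-376c-3p fell from 968, 804 and 896 CPM in cells Con to 12.6, 15.8 and 21.6 CPM in exosomes Con, a log2 difference of -4.22 ± 0.17, and in Ang it was -3.38 ± 0.19. Its neighbours of the miR-376 family, whose seeds are nearly the same, were low as well, miR-376b-3p by -3.64 ± 0.25 and miR-376a-3p by -2.34 ± 0.28. miR-369-3p stood at 1134 to 1220 CPM in cells Con and 24.3 to 35 in exosomes Con, with -3.78 ± 0.13, and miR-487b-5p at 828 to 1101 and 22.7 to 27.2, with -3.77 ± 0.17. miR-377-3p differed by -3.98 ± 0.39 and miR-136-3p by -3.60 ± 0.30. The largest differences had few exosome counts. miR-136-5p had 142 counts in cells Con and 3 in exosomes Con, a ratio of CPM of 93.1 with a 95% counting interval of 31.2 to 457. miR-544a had 31 counts in cells Con and 0 in exosomes Con, at least 6.76-fold lower against a floor of 3 counts in each library. miR-376c-5p had 73 counts in cells Ang and 0 in exosomes Ang, at least 14.7-fold lower. These bounds and intervals cover counting error only. The bounds and the ratio use library totals, unlike the log2 differences above. Against the TMM scale, library totals moved the median of all names by -1.51 in Con and by -1.88 in Ang. For miR-136-5p in Con the log2 difference was -4.89 with TMM and -6.32 with library totals.

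**Figure D2:**
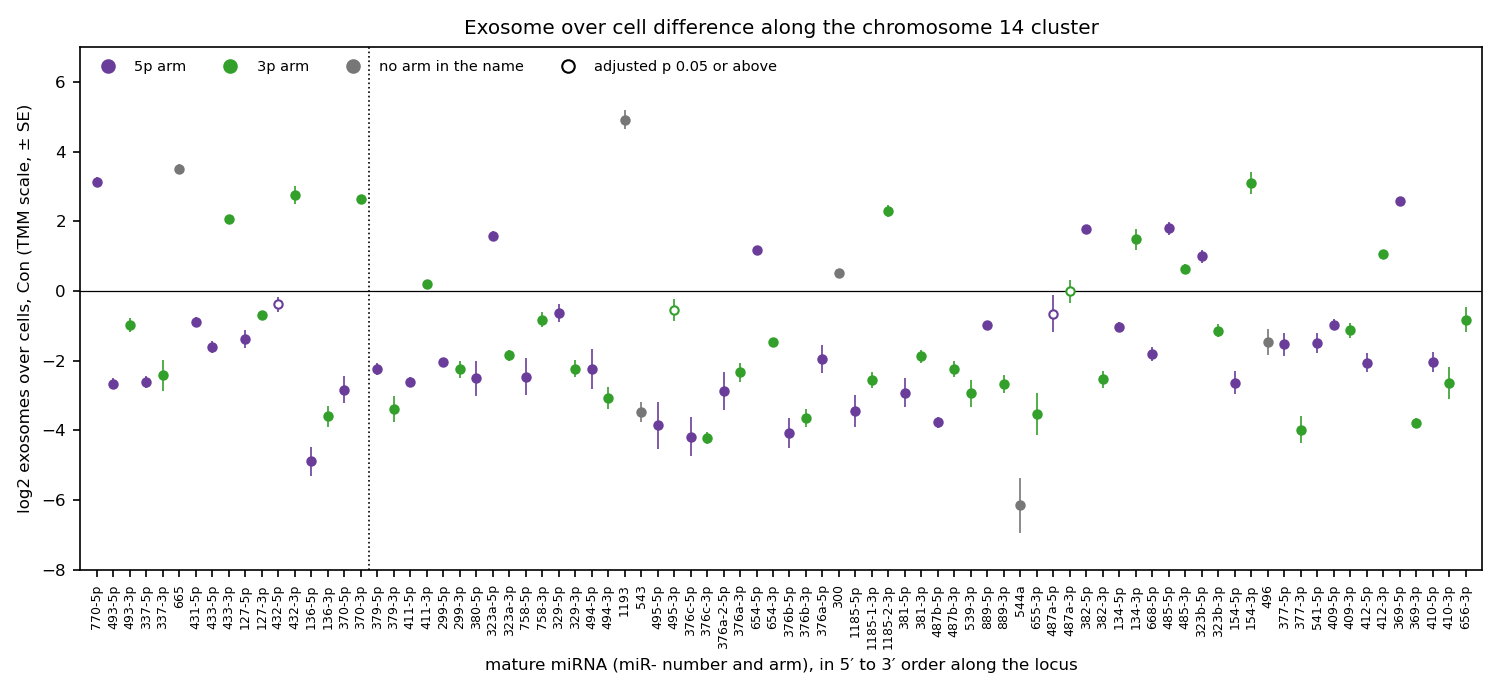
Log2 difference of exosomes over cells in Con, on the TMM scale with standard errors, for the 84 tested names with a mature sequence, in order along the locus. The dotted line separates the MEG3 and RTL1 side from the miR-379 to miR-410 side. On both sides names above 0 lie among a larger number of names below 0, in some cases as the arms of 1 hairpin.

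Higher and lower members lay on both sides of the cluster. On the MEG3 and RTL1 side 5 of 17 tested names were higher and 11 lower in Con, with a median of -0.98, and on the miR-379 to miR-410 side 15 of 68 were higher and 50 lower, with a median of -2.0. The 5p arms gave 7 higher and 31 lower of 40, and the 3p arms 10 and 27 of 39. Of the names opposite RTL1, miR-433-3p and miR-432-3p were higher, 6 of 9 were lower and miR-432-5p did not pass (-0.38 ± 0.21).

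GC content, which the choice of members did not use, varied with the difference. The 90 sequences had a median GC content of 45.5%, from 23.8% in miR-369-3p to 72.7% in miR-323a-5p, against a median of 52.2% in the 2367 listed names with a sequence. Of the 22 tested members at 40% GC or less, 1 was higher (miR-154-3p) and 20 lower in exosomes Con, with a median log2 difference of -3.16. Between 40% and 50% there were 5 higher and 28 lower of 34, with a median of -2.05, and between 50% and 60% there were 6 and 12 of 20, with -0.93. Above 60% all but miR-668-5p were higher, 7 of 8, with a median of 2.11. Pearson's r between GC content and the log2 difference was 0.62 over 84 members and 0.56 over all 1536 tested names with a sequence, and Spearman's rho was 0.62 and 0.58. In Ang r was 0.62 over 74 members and 0.56 over 1461 names. The points share their libraries, so these are descriptions with no test, and the same relation was present in all names.

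**Figure D3:**
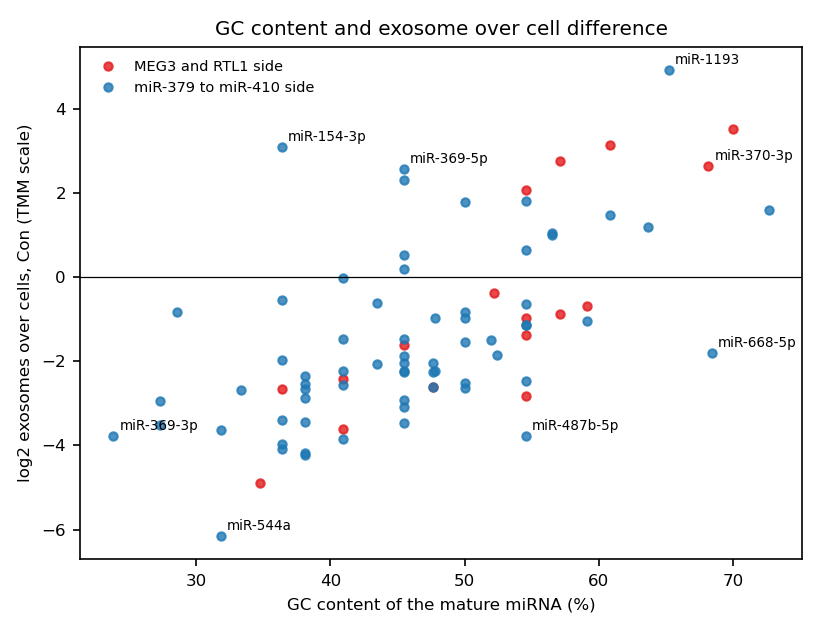
GC content of the mature miRNA against the log2 difference of exosomes over cells in Con on the TMM scale, 1 point per cluster miRNA (84 names). Low GC names lie below 0 with miR-154-3p as the exception up to 40% GC, and 7 of the 8 names above 60% GC lie above 0.

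Short motifs described as exosome sorting signals were searched on the mature strand only, with overlaps allowed. GGAG was present in 6 of 90 cluster sequences (6.67%, against 15.7% of the 2367 listed sequences), CCCU in 7 (7.78% against 11.9%) and GGCU in 11 (12.2% against 12.6%). In Con, 2 of the 5 tested members with GGAG were higher in exosomes and 2 lower, 1 of 7 with CCCU was higher and 5 lower, and 5 of 10 with GGCU were higher and 5 lower.

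On the TMM scale the arms of some cluster hairpins passed in opposite directions, while more hairpins had both arms lower in exosomes. In Con, of 33 hairpins with both arms tested, 5 had 5p higher and 3p lower, 7 the reverse, and 17 both lower. With library totals these were 2, 5 and 23. In Ang, of 27 hairpins, they were 5, 5 and 11, and with library totals 1, 2 and 22. These directions were not counted over all hairpins, so they are not shown to be particular to the cluster. Of all tested names in Con, 39.2% were higher and 44.2% lower. Such directions thus depend on the scaling between libraries, and the ratio of the arms within a library does not. The log2 ratio of 5p to 3p counts was tested with limma for hairpins whose arms each averaged at least 10 counts. In Con, 19 of 29 cluster hairpins shifted between cells and exosomes, 9 towards the 5p arm and 10 towards the 3p arm in exosomes, where 79.1% of all 344 hairpins tested shifted, 36.6% towards 5p. In Ang it was 22 of 27, 9 and 13, against 76.8% of 341, with 35.2% towards 5p. Of the 27 hairpins tested in both conditions, 16 shifted in both towards the same arm, 8 to each side, and 0 shifted towards different arms. This agreement was not counted over all hairpins, most of which shifted in each condition, so it is not shown to be particular to the cluster. With at least 30 counts per arm, 12 of 15 shifted in Con and 10 of 12 in Ang. Without exosome Con replicate 1 it was 22 of 29 in Con, and without cell Ang replicate 2 it was 21 of 28 in Ang.

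miR-369, whose hairpin lies in an intron of MEG9 (chr14:101065598-101065667), had the largest shift. Its 5p arm held 33.3%, 32.7% and 31.9% of the hairpin's counts in cells Con and 97.9%, 97.6% and 97.0% in exosomes Con, a log2 shift of 6.34 ± 0.15 (adjusted p = 1.23e-09). The counts behind it were 836 for 5p and 1722 for 3p in cells Con, and 3396 and 86 in exosomes Con. miR-382, in which the 5p arm already led, went from 89.8% to 90.8% 5p in cells Con to 99.4% to 99.6% in exosomes Con, a shift of 4.25 ± 0.26. miR-323a went from 15.2% to 18.5% up to 64.4% to 76.6%, with 3.44 ± 0.24, and miR-654 from 67.6% to 69.9% up to 91.9% to 94.8%, with 2.65 ± 0.17. In all 4 hairpins the exosome and cell libraries did not overlap.

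Towards the 3p arm, miR-154 (chr14:101059755-101059838) shifted most, from 94.9% to 96.2% 5p in cells Con to 11.1%, 35.7% and 36.7% in exosomes Con, by -5.76 ± 0.55. Its 3p arm had 10 counts in cells Con and 61 in exosomes Con, so the size is imprecise. miR-370 shifted by -5.39 ± 0.34 and miR-668 by -4.85 ± 0.23, and in both the 3p arm led throughout. The 5p arm of miR-668 went from 1.88% to 2.40% of the counts in cells Con to 0.0568% to 0.0911% in exosomes Con. miR-433 went from 61.1% to 67.4% 5p in cells Con to 10.5% to 16.2% in exosomes Con, with -3.67 ± 0.22. miR-432 (-3.14 ± 0.39), miR-412 (-3.01 ± 0.28) and miR-411 (-2.81 ± 0.18) followed. In Ang exosomes against cells the shifts were 6.35 for miR-369, 1.73 for miR-382, -5.60 for miR-370, -5.03 for miR-668 and -2.68 for miR-433.

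By counts summed over each group, the more abundant arm was a different one in cells and exosomes, in both conditions, for 7 of the 40 hairpins with both arms listed: miR-154, miR-323a, miR-369, miR-377, miR-433, miR-487b and miR-493. For miR-377 this rested on 25 and 5 exosome counts in Con and 16 and 7 in Ang. Single libraries went the other way. The 5p share was 58.3% for miR-154 in exosome Ang replicate 1 and 54.9% for miR-487b in exosome Con replicate 1. It was 52.8% for miR-493 in exosome Ang replicate 3 and 52.2% for miR-377 in cell Con replicate 3. Such changes of the leading arm were not counted over all hairpins. The arm that gained in exosomes was the one with the higher GC content in 13 of 17 shifted hairpins in Con whose arms differ in GC content, and in 16 of 19 in Ang. Over all shifted hairpins it was 146 of 221 in Con and 144 of 212 in Ang. In miR-369 the 5p arm has 45.5% GC and the 3p arm 23.8%. miR-154 went the other way, with 50% in the 5p arm and 36.4% in the 3p arm that gained.

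**Figure D4:**
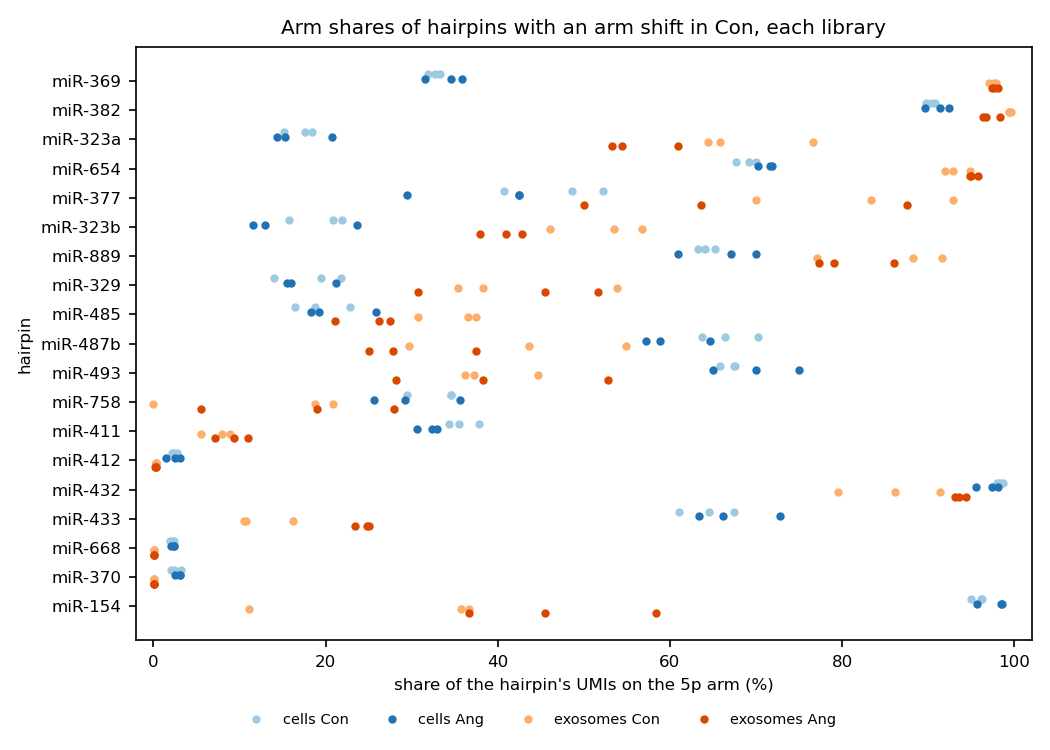
Share of each hairpin's counts on the 5p arm, in percent, for the 19 cluster hairpins with an arm shift between cells and exosomes in Con, 1 point per library in all 4 groups. Orange exosome points lie to the right of the blue cell points for miR-369 and miR-323a and to the left for miR-433 and miR-154.

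Some pairs with the same seed also differed in their split. Such ratios were not compared over all pairs of names, and most names differed between the compartments. For miR-376a-3p over miR-376b-3p the ratios overlapped in Con, at 3.91 to 4.91 in cells and 4.78 to 13 in exosomes. In Ang they were 3.56 to 5.51 and 7.73 to 14.8. miR-1185-2-3p and miR-1185-1-3p differ by a single substitution, C20U, counted from 1 at the 5′ end with the base of miR-1185-2-3p first. The ratio of their counts was 0.39 to 0.61 in cells Con and 11.7 to 18.8 in exosomes Con, and 0.34 to 0.54 and 8.69 to 24.1 in Ang. The totals behind this were 89 and 174 counts in cells Con and 302 and 20 in exosomes Con. miR-300 and miR-381-3p differ by G13A, A14G and C21G, with the base of miR-300 first. Their count ratio was 0.17 to 0.25 in cells Con and 0.87 to 1.54 in exosomes Con. miR-154-3p over miR-487a-3p was 0.11 to 0.26 in cells Con, 1.34 to 1.81 in exosomes Con and 0.23 to 0.62 in exosomes Ang. How many mismatches counting allowed is not stated in the material used, so reads of near-identical names could have been split between them and single values of these pairs are uncertain.

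Ang against Con in exosomes addressed the study's stated question. Of 53 tested cluster miRNAs, 4 rose and 6 fell, while 34.0% of all 1199 tested names passed, 17.0% in each direction. The other 38 names had too few counts to be tested. The cluster's median log2 change was 0.16, against -0.05 for all tested names. With library totals, which moved the median of all names by -0.17, it was 3 higher and 10 lower, and with DESeq2 5 and 3. With all 12 libraries in the fit it was 13 and 6 of 85 tested, where 248 and 161 of all 1835 names passed. Without exosome Con replicate 1, the library with the lowest blood cell level in that group, it was 5 and 6. That fit keeps Con replicates 2 and 3, which stood above Ang in the blood cell, liver and endothelial lists. The counts were 4 and 6 without exosome Con replicate 2, and 8 and 6 without exosome Con replicate 3. Whole populations were sampled, so a change in the amount per vesicle and in the number of vesicles that carry a miRNA cannot be told apart.

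miR-382-5p fell most. It stood at 1190, 1317 and 1361 CPM in exosomes Con and at 455, 501 and 401 in exosomes Ang, a log2 change of -1.34 ± 0.09 (adjusted p = 2.33e-06). In cells it stood at 986 to 1146 CPM in Con and 970 to 1131 in Ang, with -0.03 ± 0.09. Its hairpin lies at chr14:101054306-101054381, outside the genes annotated in GENCODE release 29. miR-432-3p had 36.9, 36.0 and 29.9 CPM in Con and 14.3, 14.6 and 11.7 in Ang, with -1.18 ± 0.22, and the call ended with DESeq2. miR-433-3p, described as promoting cardiac fibrosis, went from 371, 349 and 351 CPM to 197, 184 and 205, with -0.71 ± 0.10. In none of these 3 did the groups overlap.

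The other decreases were smaller. miR-485-5p, described as opposing cardiomyocyte hypertrophy, went from 45.3 to 50.6 CPM in Con to 18.6 to 31.3 in Ang, with -0.83 ± 0.22. miR-323a-5p went from 151 to 175 CPM to 101 to 105, with -0.50 ± 0.12. Both calls ended with DESeq2 and when 1 Ang library was left out, replicate 3 for miR-485-5p and replicate 2 for miR-323a-5p. miR-412-3p went from 1684, 1746 and 1650 CPM to 1057, 1105 and 1086, with -0.48 ± 0.06.

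miR-487a-3p rose most, from 12.6, 13.5 and 14.4 CPM to 33, 31.3 and 30.3, a log2 change of 1.37 ± 0.19 on 39 and 84 counts in all. miR-654-5p rose from 3292, 2995 and 2856 CPM to 4238, 4380 and 4348, with 0.67 ± 0.08 (adjusted p = 0.00011). miR-369-5p rose from 1134 to 1259 CPM to 1435 to 1463, with 0.46 ± 0.06. For these 3 every Ang library was above every Con library. miR-370-3p, with 0.29 ± 0.08, overlapped between groups, and its call ended with library totals and without exosome Con replicate 2 or Ang replicate 1 or 3. The most abundant member, miR-668-3p, did not pass at -0.13 ± 0.07, although its CPM was lower in every Ang library. It passed as lower with library totals (-0.29) and without the count filter (-0.19).

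**Figure D5:**
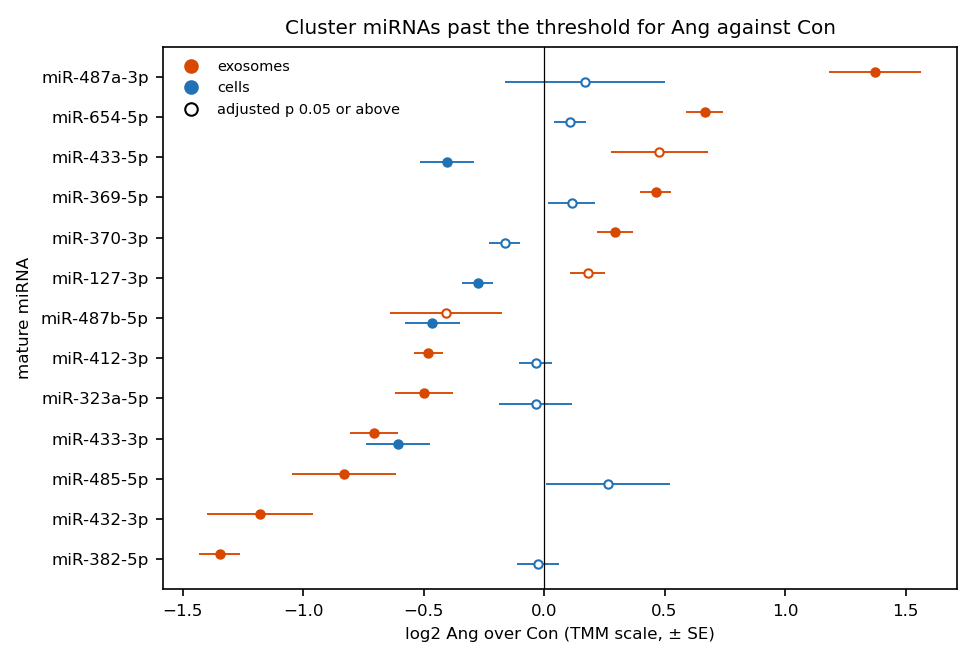
Log2 change of Ang over Con on the TMM scale with standard errors, in exosomes (orange) and in cells (blue), for the 13 cluster miRNAs that passed in either compartment. Filled points passed the threshold. miR-433-3p is filled in both, and miR-382-5p has the lowest exosome value while its cell value is near 0. miR-432-3p was not tested in cells.

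Arm ratios changed between Ang and Con in exosomes for 5 of 16 cluster hairpins, 3 towards 5p and 2 towards 3p, while 30.6% of all 235 hairpins did, 16.2% towards 5p. The count rested on single libraries: it was 2 of 17 without Con replicate 1, 2 without Ang replicate 1 or 2, 3 without Con replicate 2 or Ang replicate 3, and 8 without Con replicate 3. miR-433 went from 10.5%, 16.2% and 10.7% 5p in Con to 23.5%, 24.8% and 25.0% in Ang, a shift of 1.20 ± 0.22 (adjusted p = 0.00117). It was the only one of the 5 that passed with each library left out. miR-432 shifted by 1.20 ± 0.33, from 79.6%, 86.1% and 91.3% to 94.4%, 93.1% and 93.6%, and lost the call without Con replicate 1 or Ang replicate 1. miR-654 (0.52 ± 0.16), miR-323a (-0.80 ± 0.23) and miR-485 (-0.68 ± 0.23) held less well. miR-654 lost the call without Con replicate 2 or 3 or Ang replicate 2 or 3, miR-323a without Con replicate 1 or Ang replicate 1 or 2, and miR-485 without Con replicate 1 or 2 or any of the 3 Ang replicates. In cells 0 of 30 hairpins passed with limma, where 2.99% of all 368 did, 1.36% towards 5p. At an unadjusted p below 0.05 there were 3, and without cell Ang replicate 2 the adjusted count was 1.

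In cells, 0 of 80 tested cluster miRNAs rose and 4 fell with Ang, while 6.56% of all 1630 tested names passed, 2.76% higher and 3.80% lower. DESeq2 and limma-voom also gave 0 higher and 4 lower, and at an unadjusted p below 0.05 edgeR gave 11 names. The median log2 change was -0.02, against 0.02 for all names. miR-433-3p went from 227, 248 and 257 CPM in Con to 169, 177 and 140 in Ang, with -0.61 ± 0.13, and was the cluster miRNA that fell in both compartments. miR-433-5p, the other arm, went from 403 to 469 CPM to 305 to 376, with -0.40 ± 0.11. miR-127-3p went from 4372, 4170 and 4186 CPM to 3441, 3453 and 3726, with -0.28 ± 0.06, and miR-487b-5p from 828, 1079 and 1101 to 673, 834 and 692, with -0.46 ± 0.11. Of these, miR-487b-5p overlapped between the groups and the other 3 did not.

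Those 3 come from hairpins opposite an exon of RTL1, miR-433 (chr14:100881886-100881978) and miR-127 (chr14:100882979-100883075). The remaining 5 tested names from that strand did not pass. All 4 calls depended on single libraries. Without cell Con replicate 2 or replicate 3, 0 cluster miRNAs passed with edgeR, without cell Con replicate 1 there were 2, without cell Ang replicate 1 there was 1, and without cell Ang replicate 2, the library high in blood cell miRNAs, 3 passed. At an unadjusted p below 0.05 there were 7 and 8 names without cell Con replicate 2 and 3.

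Whether the Ang change differed between compartments was tested with all 12 libraries. For 11 of 85 cluster miRNAs the exosome change was more positive than the cell change and for 3 it was more negative, while 9.97% and 5.18% of all 1835 tested names were. With library totals, which moved the median of all names by -0.31, it was 2 and 8, and with RLE size factors 16 and 2. With library totals only miR-433-5p and miR-654-5p of the 11 kept the call, and all 3 negative ones, miR-382-5p, miR-432-3p and miR-412-3p, kept it. As that scale moved values downward, this is no check on the 3 negative ones. The count of calls in either direction was 9 without exosome Con replicate 1 and 9 without cell Ang replicate 2.

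Of 10 cluster miRNAs chosen as described in heart or vessel biology, 6 were tested in exosomes for Ang against Con. miR-433-3p and miR-485-5p fell, as above. miR-154-5p (0.72 ± 0.43), miR-494-3p (0.58 ± 0.39), miR-487b-3p (0.33 ± 0.27) and miR-329-3p (0.18 ± 0.33) did not pass. miR-494-3p had 23.3, 40.5 and 91.6 CPM in exosomes Con and 87.5, 70.0 and 50.9 in exosomes Ang, so its groups overlapped. miR-410-3p, miR-495-3p, miR-377-3p and miR-539-5p were too low in exosomes to be tested. In cells 1 of 9 tested fell, miR-433-3p. miR-410-3p was low in cells too, at 32.9 to 49.5 CPM in Con and 19.5 to 34.7 in Ang, with a change of -0.58 ± 0.30 that did not pass.

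Of 4 further names of the same region outside the 91, 3 were tested, and all were higher in exosomes than in cells on the TMM scale. miR-1247-5p, which lies beside DIO3, had 160 to 209 CPM in cells Con and 1553 to 1788 in exosomes Con, a log2 difference of 4.66 ± 0.11. miR-1247-3p differed by 2.34 ± 0.11 and miR-1197 by 1.27 ± 0.09, while the CPM of miR-1197 was lower in exosomes Con (413 to 447) than in cells Con (482 to 542). In exosomes with Ang, miR-1247-5p fell by 0.59 on the log2 scale to 968 to 999 CPM, and miR-1197 and miR-1247-3p did not pass. The chromosome 19 cluster, another large imprinted miRNA cluster, had 19 of 66 names tested in Con, of which 5 were higher and 9 lower in exosomes with a median of -0.38.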

How the data were processed

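Per the labels' protocols, QIAseq miRNA libraries were prepared from cell RNA (miRNeasy Micro kit) and exosome RNA (exoRNeasy Maxi kit). The authors deposited whole-number counts of unique molecular identifiers for each mature miRNA, not normalized, per the file headers. Cutadapt and the build GRCh38 are named in the submitters' processing notes, while aligner, annotation and mismatches allowed are not stated there. The 76 names absent from the exosome files, none of them in the cluster, were taken as 0.

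Comparisons of 2 groups used edgeR 4.0.16 under R 4.3.3 on the 6 libraries concerned (filterByExpr, TMM scaling, quasi-likelihood test, two-sided, Benjamini-Hochberg adjustment over all tested names, threshold 0.05), and the interaction, the exosome change minus the cell change, used all 12. CPM used library totals. Arm ratios, log2 of 5p over 3p counts with 0.5 added, were fitted with limma 3.58.1 over all hairpins with a mean of at least 10 counts per arm, with the mean count of the lower arm as a covariate of the prior variance. Standard errors came from the test statistics. On simulated counts the edgeR test recovered 84% of names changed 2-fold in exosomes, 85% in cells and 36% for the interaction. Of names changed 1.5-fold it recovered 49%, 45% and 7%. The arm test for Ang against Con recovered 63.3% of hairpins changed 2-fold in exosomes and 53.3% in cells. Alternatives were RLE and library total scaling, DESeq2 1.42.0, limma-voom, other filters and pseudocounts, a replicate block, all 12 libraries in a fit, and leaving out each library.

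The cluster and all lists were chosen with earlier results of these data known. Named miRNAs were the 10 most abundant in each compartment, all that passed for Ang or the interaction, the 10 largest differences each way between compartments, the hairpins with an arm shift (at most 10 per comparison), the heart list and the other names of the region. miR-134-3p, miR-323b-5p, miR-376a-3p, miR-485-3p, miR-668-5p, the hairpins miR-377, miR-487b and miR-493, and the pairs with a shared seed were named after their values were seen. Sequences and positions are from RefSeq (GRCh38.p14), and host genes from GENCODE release 29. Replicate libraries differed beyond sampling noise, so no library was taken as a repeat of another. All 12 were kept. The chi-square per degree of freedom was 8.04 and 13.0 for exosome Con replicate 1 against replicates 2 and 3, and 2.16 between those. For cell Ang replicate 2 against replicates 1 and 3 it was 5.00 and 5.44, and 2.25 between those.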

Additional observations from a re-analysis of the deposited data

Results flagged for a closer look

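For 14 of 85 tested cluster miRNAs the Ang change differed between exosomes and cells in a test of the difference itself (edgeR interaction over 12 libraries, adjusted p below 0.05). Of all 1835 tested names 15.1% passed. Values are the log2 change in exosomes minus that in cells, on the TMM scale. The exosome change was more positive for miR-382-3p by 1.40, miR-136-3p by 1.38, miR-487a-3p by 1.35, miR-433-5p by 1.03, miR-654-5p by 0.70, miR-370-3p by 0.60, miR-127-3p by 0.59 and miR-369-5p by 0.49. It was also more positive for miR-337-5p (0.89), miR-381-3p (0.88) and miR-299-5p (0.54).

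More negative exosome changes were those of miR-432-3p (-1.63), miR-382-5p (-1.18) and miR-412-3p (-0.31). miR-433-5p, with 403 to 469 CPM in cells Con and 305 to 376 in cells Ang, had 42.2 to 67.5 CPM in exosomes Con and 60.3 to 68.5 in exosomes Ang. Its other arm, miR-433-3p, fell in both compartments, with a difference between them of 0.04 ± 0.16 that did not pass. With each library left out, miR-382-5p, miR-654-5p, miR-433-5p, miR-127-3p and miR-370-3p passed every time. With library totals, however, 9 of the 11 more positive names lost the call, miR-127-3p and miR-370-3p among them. miR-432-3p lost the call only without cell Ang replicate 2, at -1.34, the library high in blood cell miRNAs. miR-337-5p and miR-381-3p lost it without 3 libraries each, and miR-369-5p only without cell Con replicate 1, at 0.42. miR-136-3p, miR-299-5p, miR-382-3p, miR-412-3p and miR-487a-3p lost it without 7 or more of the 12 libraries taken one at a time.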

How the results depend on the processing

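The counts of cluster miRNAs that passed in exosomes against cells stayed between 75 and 82 in Con and between 64 and 75 in Ang over all alternatives run, and among the named members scaling by library totals was the alternative that turned a called direction. On that scale members called higher were negative: in Con miR-411-3p (-1.31), miR-300 (-0.99), miR-485-3p (-0.88), miR-323b-5p (-0.52), miR-412-3p (-0.47), miR-654-5p (-0.34) and miR-134-3p (-0.014), and in Ang miR-411-3p (-1.64), miR-485-3p (-1.29), miR-382-5p (-1.23), miR-412-3p (-1.09), miR-485-5p (-0.98), miR-323b-5p (-0.96), miR-300 (-0.83), miR-323a-5p (-0.57) and miR-487a-3p (-0.50). Of these miR-134-3p in Con and miR-487a-3p in Ang did not pass as lower. miR-127-3p, near 0 in Ang exosomes against cells, changed sign without the count filter (0.00746) and ranged from -0.083 to 0.066 over left-out libraries without passing. For Ang in exosomes the count was 10 of 53 tested, and 19 of 85 tested with all 12 libraries in the fit. With at least 30 counts per arm, 12 arm shifts remained in Con and 10 in Ang, where fewer hairpins could be tested. Without the 10 leading names of each library the cluster's mean share was 6.76% (Con) and 6.56% (Ang) in cells and 3.29% (Con) and 3.70% (Ang) in exosomes. miR-668-3p was among the names left out in exosomes and not in cells, so these cell and exosome shares cover different members. Over left-out libraries, the count ranged from 0 to 3 in cells, from 7 to 18 for the interaction, from 2 to 8 for arm shifts in exosomes and from 0 to 1 for those in cells. Samples with the same replicate number did not deviate together (correlations from -0.048 to 0.106), so the numbers were not taken as pairs. With a replicate block the counts were 11 in exosomes, 4 in cells, 79 (Con) and 68 (Ang) between the compartments, and 11 for the interaction. The filter on low counts left 38 names untested in exosomes and 11 in cells for Ang against Con.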
